A study of Mus musculus with 10 samples.

Results

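Slow twitch muscle fibres build their contractile apparatus from their own set of sarcomere proteins, and 10 genes of that set were followed here through 3 generations of mouse calf muscle. They were Myh7, Myl2, Myl3, Tnnt1, Tnnc1, Tnni1, Tpm3, Csrp3, Myoz2 and Mb, found by gene symbol among 19938 named genes on the array. The list was chosen with earlier results of these data known. All 10 were measured, by 13 probe sets with that single symbol, and all 10 passed the filter on low signals that left 11963 genes. Each gene was read from 1 probe set, the one with the highest mean.

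The RNA came from the gastrocnemius, a large muscle of the calf, in C57BL/6 males, and each of the 10 arrays held a pool of 5 animals. F0 EX animals had voluntary exercise and F0 SED animals were sedentary; both were 28 weeks old, and each mated with a partner of the same exposure. F1 EX and F1 SED were their offspring, and F2 EX and F2 SED came from matings of F1 littermates. No F1 or F2 animal exercised, all were 8 weeks old, and EX and SED there name the ancestry only. F2 and F1 had 2 pools per ancestry, and F0 EX and F0 SED had 1 each. The labels do not say that the pools of a group held different animals, so that p-values measure only the spread between pools, which may be technical. Values are log2 signals as deposited, and a difference of 1 is a doubling.

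A slow fibre contracts slowly, resists fatigue and draws on oxidative metabolism. Its thick filament carries the beta myosin heavy chain with slow light chains, its thin filament a slow troponin complex and a slow tropomyosin, and its cytoplasm stores oxygen on myoglobin. The mouse gastrocnemius is a mostly fast muscle with a small slow portion, so that in bulk RNA a lower share of slow fibres and less slow RNA per fibre cannot be told apart.

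Skeletal muscle markers were high in every pool, with a mean over 8 genes of 12.47 to 12.85. Of 8 heart markers, 5 (Nppa, Nppb, Myl7, Ryr2 and Sln) lay below the signal filter. Tnni3 (3.34 to 3.95) and Mybpc3 (3.07 to 3.71) lay close to it, at 3.23, and Myh6 lay above it, at 4.49 to 5.41. The slow genes shared with heart were thus read where most of these heart markers were at or near background. F0 SED and F1 EX pool 1 stood apart from the other arrays, with a median correlation of 0.974 and 0.979 to the rest, against 0.986 to 0.993 for the other 8. F0 SED held the lowest value of the 10 arrays for 27.2% of the kept genes, and its keratinocyte markers averaged 5.26, beside 4.31 in F0 EX and 3.30 to 3.71 in descendant pools (4 genes). Values without these arrays are given beside the results they moved most.

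Tnnt1 and Myh7 had the smallest limma p among the 10 for ancestry over both generations, and Csrp3 and Myl2 for F2 against F1. The start regions of these 4 genes are shown for that reason. Each is the 250 bases before the first transcript start that RefSeq lists on GRCm38.p6, written 5′ to 3′ on the gene's strand. Capitals mark motif matches on either strand: the E-box CANNTG, bound by myogenic factors such as MyoD, the MCAT element CATTCC, bound by TEAD factors, and TATAAA. A match on the opposite strand appears as its reverse complement. Tnnt1 and Csrp3 lie on chromosome 7, Myh7 on 14 and Myl2 on 5. The windows are chr7:4515976-4516225 (minus strand) for Tnnt1, chr14:54994627-54994876 (minus) for Myh7, chr7:48848052-48848301 (minus) for Csrp3 and chr5:122092474-122092723 (plus) for Myl2.
Tnnt1: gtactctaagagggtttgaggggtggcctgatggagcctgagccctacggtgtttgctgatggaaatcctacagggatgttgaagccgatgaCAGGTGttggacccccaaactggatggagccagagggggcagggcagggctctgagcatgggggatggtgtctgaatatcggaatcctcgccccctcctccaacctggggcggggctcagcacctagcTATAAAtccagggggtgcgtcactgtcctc
Myh7: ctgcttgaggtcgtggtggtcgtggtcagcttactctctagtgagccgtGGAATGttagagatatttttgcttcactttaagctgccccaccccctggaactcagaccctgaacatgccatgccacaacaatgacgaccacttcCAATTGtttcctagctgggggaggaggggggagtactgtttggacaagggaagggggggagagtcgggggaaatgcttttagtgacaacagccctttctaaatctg
Csrp3: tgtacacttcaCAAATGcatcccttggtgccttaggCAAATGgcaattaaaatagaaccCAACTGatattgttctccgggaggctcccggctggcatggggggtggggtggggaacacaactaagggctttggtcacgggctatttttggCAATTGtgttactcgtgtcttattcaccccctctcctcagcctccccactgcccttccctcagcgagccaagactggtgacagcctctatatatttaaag
Myl2: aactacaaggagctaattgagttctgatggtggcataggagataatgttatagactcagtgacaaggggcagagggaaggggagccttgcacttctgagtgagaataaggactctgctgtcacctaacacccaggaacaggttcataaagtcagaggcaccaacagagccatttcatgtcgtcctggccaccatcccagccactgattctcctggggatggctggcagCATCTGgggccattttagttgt

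Tnnt1 had 1 E-box, starting 158 bases upstream, and TATAAA 30 bases upstream. Myh7 had 1 E-box at 106 and 1 MCAT match at 201 bases. Csrp3 had 4 E-boxes, at 239, 214, 191 and 100 bases, and Myl2 had 1 at 22 bases. Windows before further listed starts of Myh7, Csrp3 and Myl2, not shown, held other matches. That of Myh7 had E-boxes at 183 and 62 bases and no MCAT match, and that of Myl2 had a TATAAA match at 216 bases. An E-box was in the first window of 10 of 10 genes, beside 66.2% of 32851 windows of the same length in the mouse table, so the E-box is common in any such window. MCAT was in 3 of 10 (Myh7, Myl3 and Tnnc1; all windows 12.6%) and TATAAA in 1, Tnnt1 (12.4%). The rarer MEF2 motif was in Myoz2 (0.508% of all windows) and the CArG motif in Myl3 (1.47%). These matches describe letters and do not show binding.

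The myosin locus also carries a small RNA. The span of Myh7, chr14:54970684-54994626, holds miR-208b, and that of the related slow myosin gene Myh7b, chr2:155611243-155634307, holds miR-499; both are shown with the seed, bases 2 to 8, in capitals because the seed is the part that pairs with targets.
mmu-miR-208b-3p: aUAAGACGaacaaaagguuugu
mmu-miR-499-5p: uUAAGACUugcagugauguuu
The seeds share their first 6 bases. Mature microRNAs were not read from these arrays.

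The thick filament genes come first. Myh7, the beta myosin heavy chain and the motor of the slow fibre, measured 9.29 in F0 EX, 9.42 and 9.24 in F1 EX, and 9.29 and 9.39 in F2 EX, against 8.61 in F0 SED, 9.16 and 8.95 in F1 SED, and 8.89 and 9.19 in F2 SED. All 5 EX pools lay above all 5 SED pools, with 9.24 as the lowest EX value and 9.19 as the highest SED value. Its regulatory light chain Myl2 measured 8.62 in F0 EX, 8.32 and 8.09 in F1 EX, and 8.77 and 8.88 in F2 EX, against 8.22 in F0 SED, 8.42 and 8.26 in F1 SED, and 8.30 and 8.73 in F2 SED. The EX and SED ranges of Myl2 overlapped; both F2 EX pools held its highest values. The essential light chain Myl3 measured 9.16 in F0 EX, 8.93 and 8.92 in F1 EX, and 9.33 and 9.20 in F2 EX, against 9.0 in F0 SED, 9.12 and 9.03 in F1 SED, and 8.92 and 9.03 in F2 SED. In F1 its EX pools were the lower ones and in F2 the higher ones.

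The troponin genes set the calcium response of the thin filament. Tnnt1, slow troponin T, which ties the complex to tropomyosin, measured 8.63 in F0 EX, 8.53 and 8.63 in F1 EX, and 8.64 and 8.66 in F2 EX, against 8.30 in F0 SED, 8.37 and 8.38 in F1 SED, and 8.28 and 8.28 in F2 SED. Its EX pools spanned 8.53 to 8.66 and its SED pools 8.28 to 8.38, with no overlap in any generation. Tnnc1, the calcium sensor of slow and heart muscle, measured 9.57 in F0 EX, 8.94 and 9.38 in F1 EX, and 9.55 and 9.44 in F2 EX, against 8.40 in F0 SED, 9.32 and 9.10 in F1 SED, and 9.06 and 9.27 in F2 SED. F0 SED was far below the other 9 pools, and the F1 ancestries overlapped. Tnni1, the slow inhibitory subunit, measured 7.30 in F0 EX, 7.38 and 6.94 in F1 EX, and 7.13 and 7.42 in F2 EX, against 6.94 in F0 SED, 7.07 and 6.79 in F1 SED, and 6.92 and 7.27 in F2 SED. The EX and SED ranges of Tnni1 overlapped within F1 and within F2.

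Tpm3, which encodes slow tropomyosin, measured 10.21 in F0 EX, 9.72 and 10.16 in F1 EX, and 10.20 and 10.17 in F2 EX, against 9.32 in F0 SED, 10.08 and 9.68 in F1 SED, and 9.87 and 10.08 in F2 SED. F0 SED was again the lowest pool. Tpm3 had 3 further probe sets, with means of 8.66, 6.23 and 5.05, beside 9.95 for the one used. Tropomyosin genes resemble each other and the transcript has several forms, so Tpm3 values are uncertain.

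Csrp3, the muscle LIM protein of the Z-disc, measured 7.37 in F0 EX, 6.49 and 6.96 in F1 EX, and 7.52 and 7.52 in F2 EX, against 6.94 in F0 SED, 7.13 and 7.25 in F1 SED, and 7.36 and 7.53 in F2 SED. Both F1 EX pools lay below both F1 SED pools, and all F2 pools lay above all F1 pools. Myoz2, calsarcin-1, which holds calcineurin at the slow Z-disc, measured 8.29 in F0 EX, 8.71 and 7.94 in F1 EX, and 8.59 and 8.56 in F2 EX, against 8.54 in F0 SED, 8.28 and 8.16 in F1 SED, and 8.21 and 8.48 in F2 SED. The F1 EX pools held both its highest and its lowest value. Mb, the oxygen store myoglobin, measured 12.20 in F0 EX, 12.04 and 11.77 in F1 EX, and 12.03 and 11.85 in F2 EX, against 12.41 in F0 SED, 11.80 and 11.84 in F1 SED, and 11.78 and 11.73 in F2 SED. Both F0 pools were above all 8 descendant pools.

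**Figure D1:**
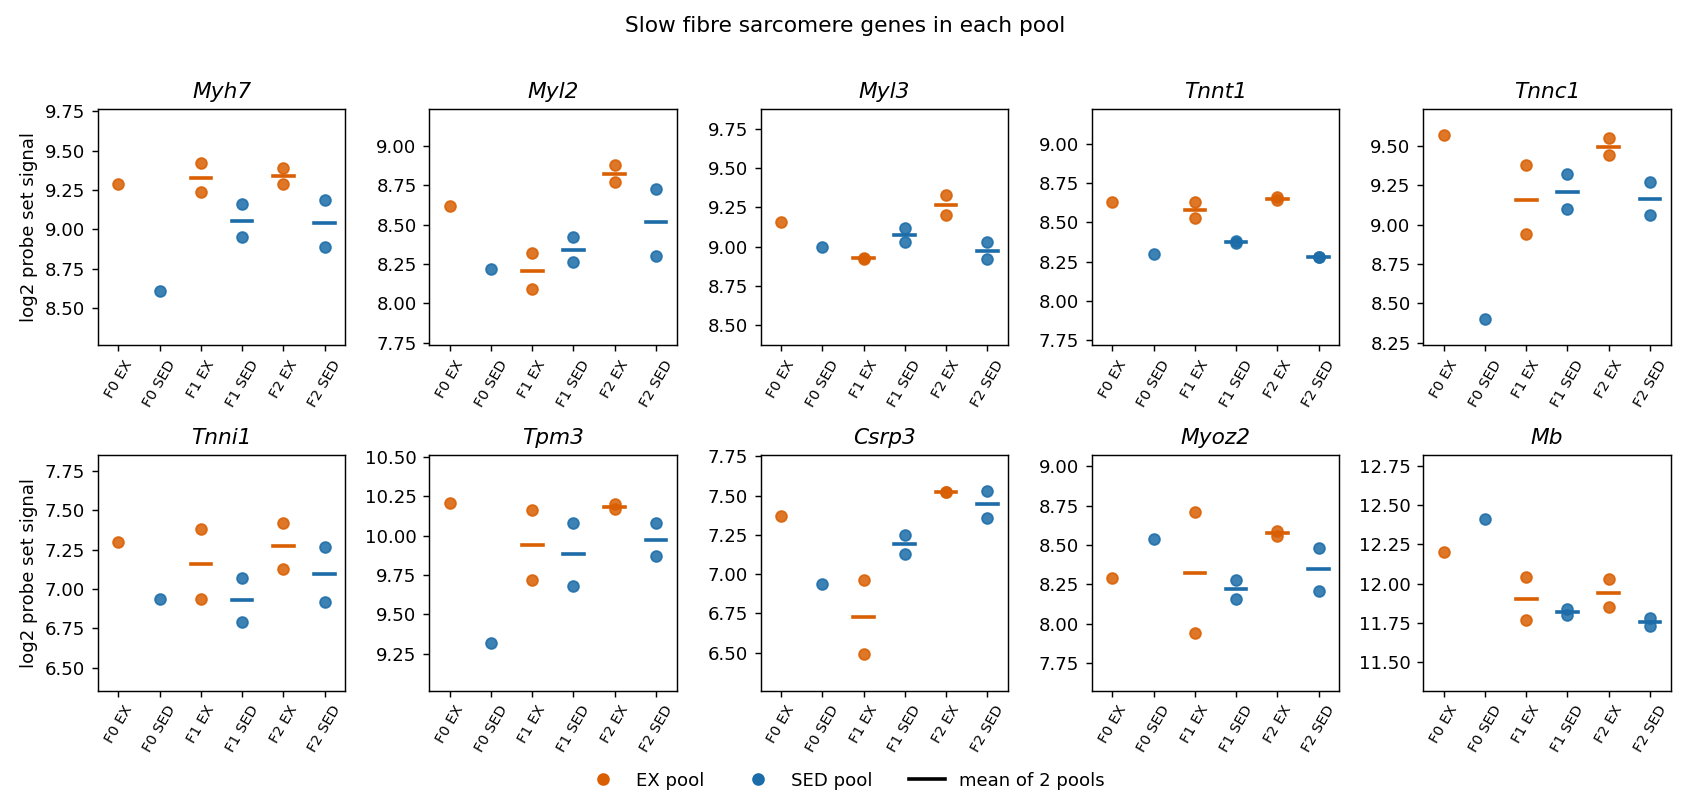
Log2 signal of each of the 10 slow fibre genes (1 panel a gene, vertical axis) in each pool (horizontal axis, points), with EX and SED pools of F0, F1 and F2 side by side and lines at the mean of 2 pools. The EX points of Myh7 (9.24 to 9.42) and Tnnt1 (8.53 to 8.66) sit above their SED points (8.61 to 9.19 and 8.28 to 8.38) in all 3 generations, and the F0 points of Mb (12.20 and 12.41) sit above those of all descendants.

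The first question was whether sedentary descendants of exercised animals differed from those of sedentary animals. Over F1 and F2 together, 9 of 10 slow fibre genes had estimates above 0 (EX minus SED), beside 53.3% of all genes. Their median was 0.14 (all genes 0.01), and Csrp3 was the exception at -0.20 (-0.05 without F1 EX pool 1). With 1 pool left out in turn the median ran from 0.09 (without F2 SED pool 1) to 0.22 (without F1 SED pool 1). None of the 10 passed limma's test at a Benjamini-Hochberg adjusted p of 0.05, and neither did any of the 11963 genes (0%); at an unadjusted p under 0.05 limma gave 597 genes. Of the 10, 2 were higher in EX at that unadjusted threshold, beside 2.47% of all genes.

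Those were Tnnt1 and Myh7. Tnnt1 averaged 8.61 ± 0.06 in EX descendants and 8.32 ± 0.06 in SED descendants (SD, n = 4 pools each), a difference of 0.29 with a 95% interval of 0.11 to 0.47 (SE 0.082; limma adjusted p = 0.888). Myh7 averaged 9.34 ± 0.09 in EX descendants and 9.05 ± 0.15 in SED descendants (SD, n = 4 pools each), a difference of 0.29 with an interval of 0.06 to 0.51 (SE 0.101; limma adjusted p = 0.888). In both genes all 4 EX pools lay above all 4 SED pools, which held for 1.75% of all genes in this direction. By limma's p they ranked 34 (Tnnt1) and 149 (Myh7) among 11963 genes. Both differences were thus larger than the spread between pools but did not pass over all genes. The same order held with the F0 pools added: 5 EX pools above 5 SED pools, which 67 of 11963 genes showed (0.56%). In F0, EX names the animals' own exercise and not their ancestry, and these animals were older. The order over all pools thus mixes own exercise with ancestry and does not test ancestry alone. That 5-against-5 count was added after the values were seen. With the F0 pools in the fit the difference was 0.30 for Tnnt1 (limma adjusted p = 0.842) and 0.36 for Myh7 (adjusted p = 0.842). This fit holds the same mixture. F0 SED, an array that stood apart, had the lowest Myh7 value (8.61), and its part in the larger Myh7 difference was not tested.

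The other members lay closer to 0. Tnni1 differed by 0.21, Myoz2 by 0.17, Tnnc1 by 0.14, Mb by 0.13, Tpm3 by 0.13, Myl2 by 0.09 and Myl3 by 0.07. The intervals of these 7 genes include 0, and over the 10 genes the 95% intervals reached a median of 0.28 to either side. Adipocyte markers moved the other way in this comparison: 5 of 5 kept genes had estimates below 0 (median -0.48), and their part in the result was not tested.

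In F1, the sons, 6 of 10 genes were above 0 (48.9% of all genes), with a median of 0.07 (all genes 0). Csrp3 averaged 6.73 ± 0.33 in F1 EX and 7.19 ± 0.09 in F1 SED (SD, n = 2 pools each), a difference of -0.47 with an interval of -0.83 to -0.10 (SE 0.163; limma adjusted p = 0.804). Without F1 EX pool 1, whose 6.49 was the lowest Csrp3 value, the difference was -0.23 (limma adjusted p = 0.998). Without F1 EX pool 2, which leaves that pool as the only F1 EX array, it was -0.70 (limma adjusted p = 0.0254), and 1046 of all genes passed as well. Myh7 had 0.27 and Tnnt1 0.20, and their EX pools lay above their SED pools, as in 13% of all genes. Csrp3 and Myl3 (-0.15) had EX pools below SED pools, as in 16.6% of all genes.

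None of the 10 or of the 11963 genes passed in F1 (0%), and limma gave 584 genes at an unadjusted p under 0.05. Csrp3 was the 1 of 10 lower at that threshold, beside 2.9% of all genes. The 2 F1 EX pools were unlike each other: 1830 genes differed by 0.5 or more between them, against 316 between the F1 SED pools. The mean of 5 adipocyte markers was 5.21 and 5.40 in F1 EX, against 6.19 and 5.93 in F1 SED.

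In F2, the grandsons, 10 of 10 genes were above 0, beside 60.7% of all genes, and their median was 0.26 (all genes 0.04). In 8 of 10 both EX pools lay above both SED pools, beside 25.8% of all genes. Among the 2582 genes with a mean signal of at least 7.12, that of the lowest slow fibre gene, the background was 35.7% separated and 76.3% above 0. The exceptions were Tnni1 and Csrp3. Tnnt1 averaged 8.65 ± 0.01 in F2 EX (SD, n = 2 pools) and stood at 8.28 in both F2 SED pools, a difference of 0.37 with an interval of 0.12 to 0.63 (SE 0.115; limma adjusted p = 1). Myl3 differed by 0.29 (0.02 to 0.56; limma adjusted p = 1). Tnnc1 had 0.33, Myl2 0.31, Myh7 0.30, Myoz2 0.23, Tpm3 0.21, Tnni1 0.18, Mb 0.18 and Csrp3 0.08, all with intervals that include 0.

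No gene of the array passed in F2 (0%), and 532 had an unadjusted limma p under 0.05. Tnnt1 and Myl3 were the 2 of 10 higher at that threshold, beside 1.81% of all genes. F2 SED pool 1 carried much of the F2 median, which was 0.13 without it. Averaging all 4 Tpm3 probe sets put the Tpm3 difference at 0. The further Tpm3 probe set with a mean of 6.23 had 6.24 and 6.28 in F2 EX, against 6.45 and 6.43 in F2 SED. That with a mean of 5.05 had 5.08 and 5.03 in F2 EX, against 5.30 and 5.14 in F2 SED. In the one with a mean of 8.66 the F2 ancestries overlapped. Markers of fibroblasts and tendon moved with the slow fibre genes: 8 of 8 had both F2 EX pools above both F2 SED pools, beside 25.8% of all genes. Their mean was 9.34 and 9.52 in F2 EX, against 9.17 and 9.19 in F2 SED. Endothelial markers averaged 6.99 and 7.04 in F2 EX, against 6.89 and 6.92 in F2 SED, but only 1 of 6 was separated in this way. Their part in the result was not tested.

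**Figure D2:**
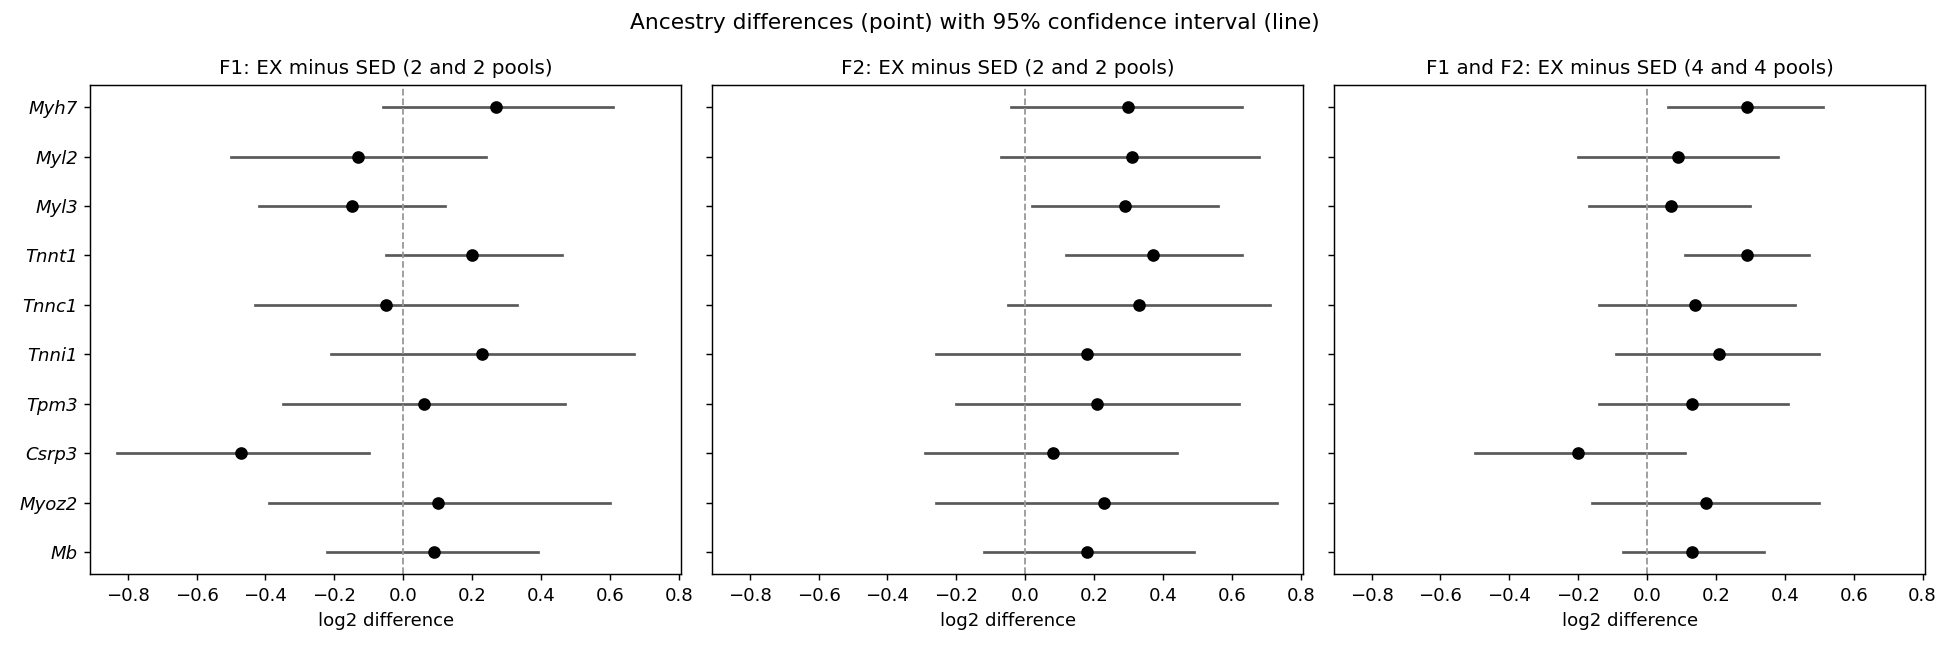
Ancestry differences (EX minus SED, log2, horizontal axis) of the 10 slow fibre genes with 95% confidence intervals from limma, for both generations together, F1 and F2. In F2 all 10 points lie above 0 (0.08 to 0.37), in F1 they run from -0.47 (Csrp3) to 0.27 (Myh7).

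Whether the ancestry difference changed between generations was tested as such. F2 minus F1, it was above 0 in 9 of 10 genes (56.2% of all genes) with a median of 0.16 (all genes 0.04); 7 of 10 were above 0 under quantile normalization and 10 of 10 with arrays centred on their medians. Myl3 had 0.44 (0.06 to 0.83; limma adjusted p = 0.919) and Csrp3 0.54 (0.02 to 1.06; limma adjusted p = 0.919), while Myh7 had 0.02. No member and no other gene passed (0%), and 519 genes had an unadjusted limma p under 0.05; 2 of 10 members were higher at that threshold, beside 2.28% of all genes. Without F1 EX pool 1 the Csrp3 value was 0.30 (limma adjusted p = 0.843), and without F1 EX pool 2 it was 0.78 (adjusted p = 0.0635); each leaves 1 F1 EX pool, assumed to vary like the other groups. The members' intervals reached a median of 0.52 to either side.

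F2 was then set against F1, at the same age and with no exercise in either. Of the 10 genes, 7 were above 0 (51.6% of all genes) and the median was 0.14 (all genes 0); Myh7, Tnnt1 and Mb lay between -0.01 and 0 and turned to 0.03 or 0.04 with arrays centred on their medians. None of the 10 passed, as none of all genes did (0%; 509 at an unadjusted limma p under 0.05), and 2 of 10 were higher at that unadjusted threshold, beside 2.45% of all genes. With 1 pool left out in turn the median ran from 0.06 (without F1 EX pool 2) to 0.22 (without F2 SED pool 1). Fibroblast and tendon markers had 7 of 8 above 0 (median 0.15) and skeletal muscle markers 8 of 8 (median 0.07), and their part in the result was not tested.

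Csrp3 averaged 7.48 ± 0.08 in F2 and 6.96 ± 0.33 in F1 (SD, n = 4 pools each), a difference of 0.52 with an interval of 0.22 to 0.83 (SE 0.138; limma adjusted p = 0.911; rank 40 of 11963 by p). All 4 F2 pools lay above all 4 F1 pools, which 1.77% of all genes showed in this direction. Without F1 EX pool 1 the difference was 0.37. Myl2 averaged 8.67 ± 0.25 in F2 and 8.27 ± 0.14 in F1 (SD, n = 4 pools each), a difference of 0.40 with an interval of 0.11 to 0.69 (SE 0.130; limma adjusted p = 0.911; rank 124). F2 SED pool 1, at 8.30, kept the Myl2 groups from separating. Myoz2 had 0.19, Tpm3 0.17, Tnni1 0.14, Tnnc1 0.14 and Myl3 0.12, all within the spread between pools.

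F0 and descendants differ in age, 28 against 8 weeks, as well as in generation, and these cannot be told apart. Across all genes 279 passed (2.33%), and 2106 had an unadjusted limma p under 0.05; of the 10 slow fibre genes 0 passed and 1 was higher at the unadjusted threshold, beside 7.61% of all genes. Their median was -0.03 (all genes -0.02), with 4 of 10 above 0 (45.1% of all genes).

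Myoglobin was that 1 gene. Mb averaged 12.3 ± 0.15 in F0 (SD, n = 2 pools) and 11.85 ± 0.12 in descendants (SD, n = 8 pools), a difference of 0.45 with an interval of 0.19 to 0.71 (SE 0.119; limma adjusted p = 0.0784). The F0 and descendant pools did not overlap, as in 5.79% of all genes in this direction. Mb stayed above 0 without either F0 pool: 0.62 (limma adjusted p = 0.0276) without F0 EX and 0.28 (adjusted p = 0.477) without F0 SED. Each of these fits leaves F0 with 1 pool, which is assumed to vary like the other groups, and without F0 EX that pool is F0 SED, with 1231 genes called in all. It also passed without F1 EX pool 1 (0.48, limma adjusted p = 0.0347). Myh7 had -0.24, Tnnc1 -0.27 and Tpm3 -0.23. The sign turned with the F0 SED pool for 2 of these: without it Tnnc1 had 0.25 and Tpm3 0.14, and without F0 EX they had -0.78 (limma adjusted p = 0.0361) and -0.60. The other 6 genes lay between -0.06 and 0.05. Fibroblast and tendon markers averaged 8.18 in the F0 EX pool and 8.06 in the F0 SED pool, against 9.15 to 9.52 in descendant pools, and 6 of 8 were called lower. Endothelial markers had 0 of 6 above 0 (median -0.51, 2 called lower), skeletal muscle markers 0 of 8 (median -0.17, 0 called) and macrophage markers 1 of 7 (median -0.36, 0 called). Keratinocyte markers had 4 of 4 above 0 (median 1.59, 3 called higher). The part of these markers in the result was not tested.

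**Figure D3:**
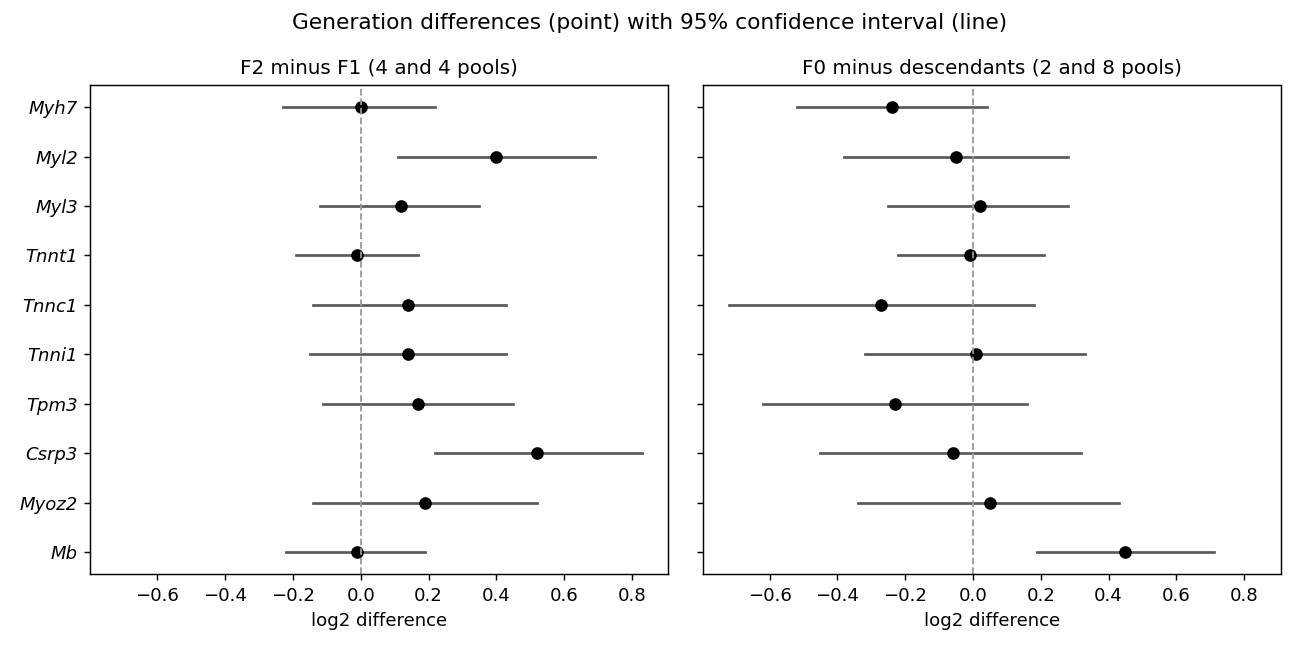
Generation differences (log2, horizontal axis) of the 10 slow fibre genes with 95% confidence intervals from limma: F2 minus F1 on the left, F0 minus descendants on the right. Csrp3 (0.52) and Myl2 (0.40) have intervals above 0 on the left and Mb (0.45) on the right; 0 of these passed adjustment over 11963 genes.

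F0 EX and F0 SED were 1 pool each and allow no test. Tnnc1 was 1.17 higher in the F0 EX pool, Tpm3 0.88 and Myh7 0.68, so 3 of 10 genes were at least 0.5 higher, beside 15.3% of all genes, or 27.8% of the 2582 genes with signals of at least 7.12. Csrp3 differed by 0.43, Myl2 by 0.40, Tnni1 by 0.36, Tnnt1 by 0.33, Myl3 by 0.17, Mb by -0.21 and Myoz2 by -0.25, and 0 of 10 were 0.5 or more lower (5.38% of all genes). The median over the 10 was 0.38, beside 0.08 over all genes and 0.25 over the 2582 genes.

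These F0 values rest on the F0 SED array, which stood apart, and on its scaling. The median of the 10 was 0.15 after quantile normalization (all genes 0.01), where Myl3 turned to -0.02, and 0.52 with arrays centred on the medians of all probe sets (all genes 0.22). Keratinocyte markers were lower in F0 EX, at 4.31 against 5.26 in F0 SED, and their part in the result was not tested. F0 SED had the lowest of all 10 values for Myh7, Tnnc1 and Tpm3, the same 3 genes that passed 0.5.

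The neighbouring parts of the slow programme are given next, from lists of genes that accompany or regulate slow fibres. Of 17 companions of the slow sarcomere (calcium handling, stress and fuel genes), 0 passed in any comparison of ancestry or of F2 with F1. Between F0 and descendants 1 of 17 passed, beside 2.33% of all genes: Pln, phospholamban, the brake of the slow calcium pump, measured 5.60 in the F0 EX pool and 4.94 in the F0 SED pool, against 3.75 to 4.74 in descendant pools. Pln was 1.11 higher in F0 (SE 0.22; limma adjusted p = 0.0211), and the groups did not overlap. The Pln difference was 1.42 without F0 SED (limma adjusted p = 0.0665) and 0.80 without F0 EX (adjusted p = 0.104), and did not pass in either case. Hspb7, a small heat shock protein of muscle, had 0.61 (limma adjusted p = 0.08). The Hspb7 difference was 0.27 without F0 SED and 0.95 without F0 EX, each with 1 F0 pool left. It was 0.66 without F1 EX pool 1, where Hspb7 passed (limma adjusted p = 0.032).

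In F2 ancestry 15 of 17 companions were above 0, with a median of 0.16 (all genes 0.04), beside 60.7% of all genes and 76.3% of the 2582 genes with signals of at least 7.12. Both F2 EX pools lay above both F2 SED pools in 9 of 17, beside 25.8% of all genes and 35.7% of those 2582 genes. In F1 ancestry 7 of 17 were above 0, beside 48.9% of all genes. The F2 estimates were 0.42 for Pln, 0.38 for Lmod2, an actin nucleator, 0.29 for Casq2, the slow calsequestrin, and 0.23 for Ankrd2, a stretch-responsive protein of slow fibres. The slow myosin gene Myh7b went the other way at -0.20. Its signals were low, at 3.85 and 3.65 in F2 EX, against 3.99 and 3.91 in F2 SED. For F2 against F1, 14 of 17 were above 0 (51.6% of all genes), with a median of 0.14 (all genes 0). Casq2 measured 7.05 and 6.99 in F2 EX and 6.62 and 6.85 in F2 SED, against 6.68 and 6.17 in F1 EX and 6.43 and 6.37 in F1 SED. Its difference was 0.47, and that of Fhl1, a LIM protein of muscle, was 0.25; neither passed adjustment.

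Of 24 measured regulators of the slow programme, 0 passed in any comparison. Prox1, a transcription factor of slow fibres, measured 3.73 in the F0 EX pool and 3.26 in the F0 SED pool. Descendant pools measured 3.86 to 4.29, and the difference was -0.56 (limma adjusted p = 0.0537). Prox1 signals were low: the F0 SED value lay close to the signal filter at 3.23, where readings are at or near background. The Prox1 difference was -0.37 without F0 SED (limma adjusted p = 0.403), -0.75 without F0 EX (0.0238) and -0.53 without F1 EX pool 1 (0.0417). Eya1, a co-activator that favours fast genes, had -0.58 in F1 ancestry, which did not pass, with 5.51 in F1 EX pool 1 and 6.40 in F1 EX pool 2, against 6.59 and 6.48 in F1 SED. Without F1 EX pool 1 the Eya1 difference was -0.13, and with that pool as the only F1 EX array it was -1.03 (limma adjusted p = 0.00836). The regulator medians lay between -0.04 and 0.08 over the 6 tested comparisons.

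The fast sarcomere list, 18 genes, holds the counterparts. It also holds Pvalb, Atp2a1, Casq1 and Mylk2, which are not structural sarcomere genes. Atp2a2 and Casq2, the slow forms of Atp2a1 and Casq1, were among the companions, so the slow and fast lists are not like for like. None of the 18 passed in any comparison. In F2 ancestry 17 of 18 were above 0, beside 60.7% of all genes and 76.3% of the 2582 genes with signals of at least 7.12. In 9 of 18 both F2 EX pools lay above both F2 SED pools, beside 25.8% of all genes and 35.7% of those 2582 genes. Their F2 ancestry median was 0.04, the value of all genes, and their F2 against F1 median was 0.06. Between F0 and descendants it was -0.14, with Myl1, the fast essential light chain, at -0.39, Casq1, the fast calsequestrin, at -0.51 and Mylk2, the light chain kinase, at 0.38 (limma adjusted p = 0.0671). Without F0 SED these were -0.23 (Myl1), -0.24 (Casq1) and 0.36 (Mylk2), and without F0 EX -0.55, -0.79 and 0.40, of which Myl1 and Casq1 passed (limma adjusted p = 0.025 and 0.0179). Without F1 EX pool 1, Casq1 (-0.57, limma adjusted p = 0.0208) and Mylk2 (0.37, adjusted p = 0.0453) passed. For the 15 measured Z-disc and common sarcomere genes the F2 ancestry median was 0.02, the F2 against F1 median 0.06 and the F0 against descendants median -0.13, again with 0 passing. Of these 15, 7 had both F2 EX pools above both F2 SED pools (25.8% of all genes).

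The mean deviation of a list in a pool, over each gene's own mean of 10 pools, sets these lists side by side. The slow fibre genes stood at 0.21 and 0.22 in F2 EX, against -0.14 and 0.06 in F2 SED. In F1 EX they stood at -0.05 and -0.09, against -0.02 and -0.15 in F1 SED, and in F0 EX at 0.17, against -0.23 in F0 SED. The companions stood at 0.15 and 0.09 in F2 EX, against -0.05 and 0.01 in F2 SED, while the fast genes stood at 0.05 and 0.09 in F2 EX, against 0.03 and 0.02 in F2 SED. The slow list thus had a wider spread over F2 pools than the fast list. Mean signals over F2 pools were 8.76 to 9.11 for the slow list and 12.12 to 12.19 for the fast list. The part of signal level in the spread was not tested, and no test was made of lists against each other.

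**Figure D4:**
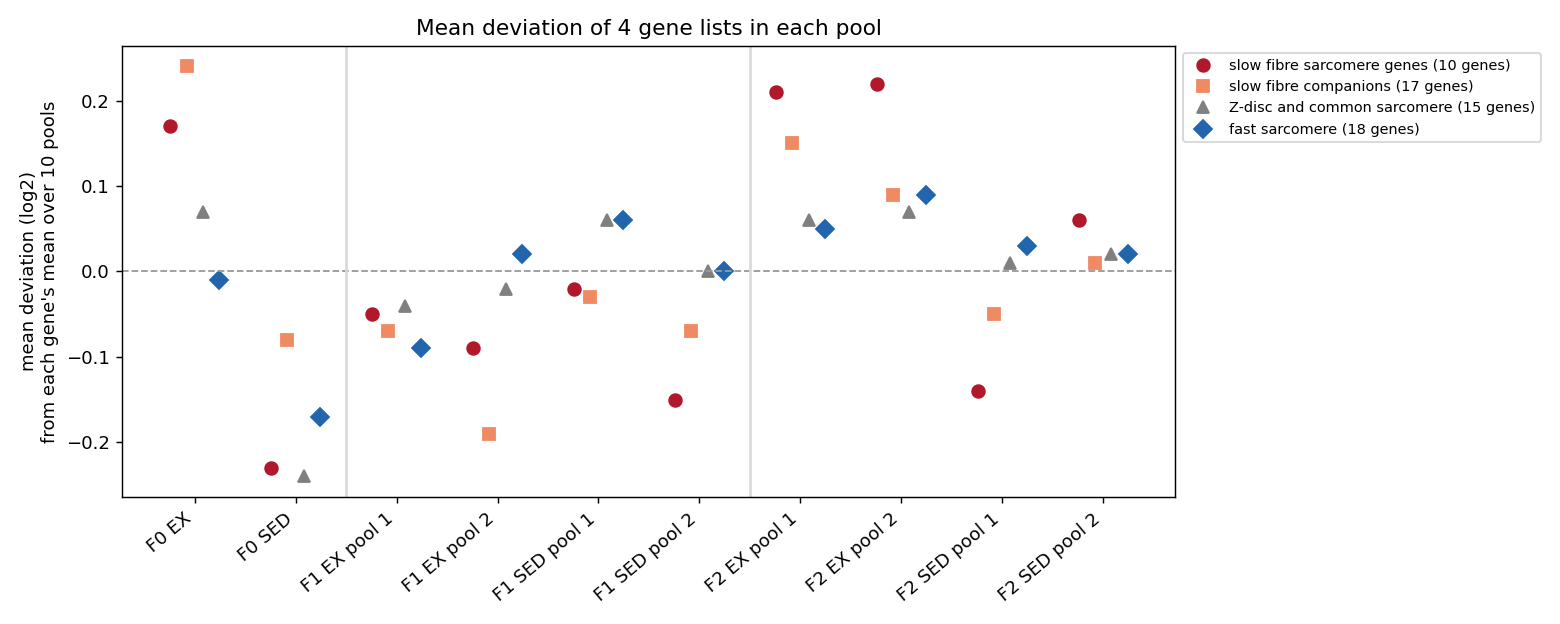
Mean deviation (log2, vertical axis) of 4 gene lists from each gene's mean over 10 pools, for every pool (horizontal axis). The slow fibre genes (circles) reach 0.21 and 0.22 in the F2 EX pools and -0.23 in F0 SED, while the fast sarcomere genes (diamonds) stay between -0.17 and 0.09.

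The 10 genes did not move as a block. Over the 8 descendant pools, which share the array scaling, the 45 pairs had a median Pearson r of 0.43 and a range of -0.37 to 0.92, and 37 were above 0. Tnnc1 and Tpm3 had the highest r (0.92), and Myh7 with Tnni1 and Tnni1 with Myoz2 had 0.84 each. Myl2 with Myl3, and Myl3 with Tnnc1, had 0.76 each. Csrp3 had -0.37 with Mb and -0.29 with Myh7. These are descriptions over 8 pools of 4 groups.

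**Figure D5:**
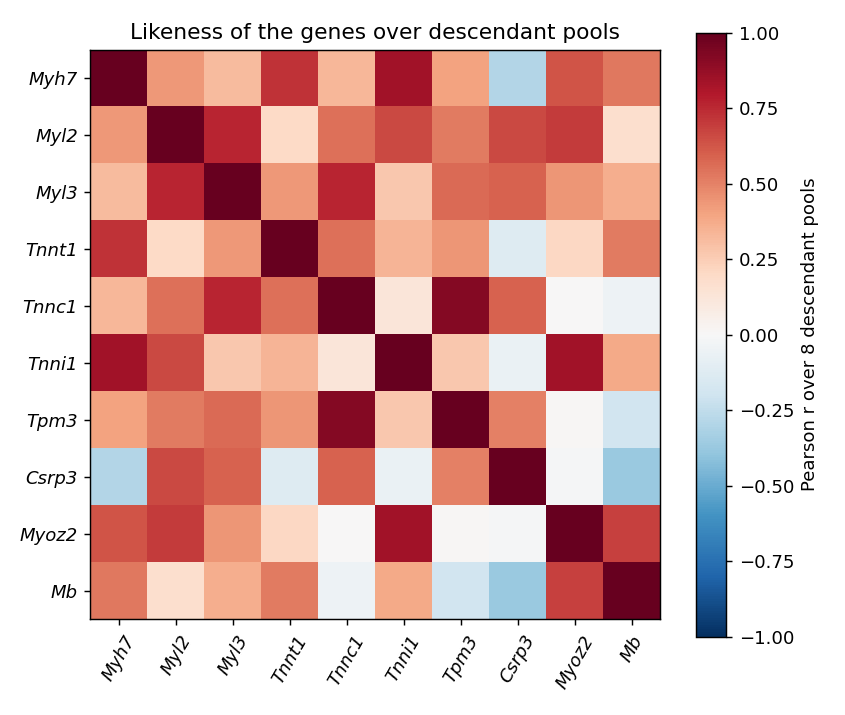
Pearson r of each pair of the 10 slow fibre genes over the 8 descendant pools, as a colour scale from -1 to 1. Tnnc1 and Tpm3 form the darkest pair (0.92), and the row of Csrp3 holds the lowest values (-0.37 with Mb).

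Of all other kept genes, those most like the mean of the 10 over the 8 descendant pools were Lims1, an adaptor at integrin adhesions (r = 0.968), Ccrl2, a chemokine receptor-like protein (0.965), Tmtc1, a glycosyltransferase of the endoplasmic reticulum (0.954), Cacnb1, a subunit of the muscle calcium channel (0.942), and Lamb1, a laminin chain (0.939). Over all 10 pools r was 0.901 for Lims1, 0.888 for Ccrl2, 0.774 for Tmtc1, 0.490 for Cacnb1 and 0.403 for Lamb1. These 5 were picked as the highest of all kept genes, and the pools share their scaling.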

How the data were processed

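The authors deposited 1 table of log2 signals for 35557 probe sets of an Affymetrix whole-transcript array, running from 0.966 to 14.2, and the log2 scale was read from that range. Affymetrix Expression Console is named in the submitters' processing notes; the sources used here do not give its version, background correction, normalization or a genome build. Values were used as deposited, and precision is limited by how few arrays there are.

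Gene names came from the platform annotation, which can be old: 21789 had 1 symbol, 1621 several (not used) and 12147 none. Where a gene had several probe sets (999 of 19938 genes), that with the highest mean stood for it. Genes below the 40th percentile of mean signal (3.23) were left out.

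Models were fitted in limma 3.58.1 under R 4.3.3 (lmFit, eBayes), with Benjamini-Hochberg adjustment over 11963 genes, threshold 0.05. Ancestry over both generations and F2 against F1 came from an additive model on 8 arrays, F1 and F2 ancestry and their difference from a model of 4 groups, and F0 against descendants from an additive model on 10 arrays. The scripts were tested on simulated data. The 10 genes, the lists and the tests were chosen with earlier results of these data known. All 10 were described; of other lists, genes that passed or else up to 4 with the smallest p. The pool numbers did not pair the samples: deviations of same-numbered pools correlated at -0.11 to 0.06 over 6 pairs of groups. Alternatives were other scalings, filters, fits, probe set rules and left-out pools; leaving out pools for genes of the other lists was added after seeing the data.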

Additional observations from a re-analysis of the deposited data

Results flagged for a closer look

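Each of the 10 genes was checked in sets of 4 or 8 descendant pools, 50 checks in all. In 2 checks a pool lay far from the others, and chance flags about 1 in 20 such checks. Among EX descendants, Tpm3 in F1 EX pool 1 stood at 9.72, while the other 3 pools began at 10.16. Among F2 pools, Csrp3 in F2 SED pool 1 stood at 7.36, while the other 3 began at 7.52.

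In 4 cases every pool of a descendant generation ordered the ancestries against the F0 pair. EX minus SED of Myl3 was -0.15 in F1 and 0.17 in F0, and that of Csrp3 was -0.47 in F1 and 0.43 in F0. EX minus SED of Myoz2 was 0.23 in F2 and -0.25 in F0, and that of Mb was 0.18 in F2 and -0.21 in F0. F0 had 1 pool per exposure, so these differences between generations were not tested.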

How the results depend on the processing

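Tnnt1 and Myh7 stayed above 0 for ancestry over both generations under every alternative run, at 0.27 to 0.33 and 0.22 to 0.34 with 1 pool left out, and neither passed adjustment. The number of slow fibre genes called was 0 to 2 for F0 against descendants with 1 pool left out (2 without F0 EX, 1 without F1 EX pool 1), 0 to 1 for F1 ancestry (1 without F1 EX pool 2), and 0 in the other comparisons. Medians with 1 pool left out ran from -0.14 to 0.09 for F0 against descendants, -0.05 to 0.12 for F1 ancestry, 0.13 to 0.36 for F2 ancestry, 0.14 to 0.27 for the difference of both effects, 0.09 to 0.22 for ancestry over both generations and 0.06 to 0.22 for F2 against F1. With the replicate number as a block 0 members were called, and the smallest adjusted p of a member was 0.891 (limma) for ancestry over both generations.

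For F0 EX against F0 SED the median was 0.15 after quantile normalization, 0.52 with arrays centred on all probe sets (6 past 0.5) and 0.26 centred on kept genes, an alternative added after seeing the data. Some estimates changed sign, and the cause was not tested. For F0 against descendants these were Myl2 0.02 and Tnnt1 0.06 (quantile), Myl3 0 (array weights), and, without F0 SED and F1 EX pool 1 together, Myl2 0.11, Tnnc1 0.12, Tpm3 0.04, Csrp3 0.10 and Myoz2 -0.02. For F2 against F1, centring gave Myh7 0.04, Tnnt1 0.03 and Mb 0.03, and array weights Myh7 0.04. For F2 ancestry, averaging probe sets gave Tpm3 0. For the difference of both effects, quantile normalization gave Myh7 -0.06 and Mb -0.06, centring Tnni1 0.04, and averaging Tpm3 -0.03.

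With 1 pool left out, signs also turned within these ranges. F0 against descendants: Myl2 -0.20 to 0.11, Myl3 -0.03 to 0.07, Tnnt1 -0.03 to 0.02, Tnnc1 -0.78 to 0.25, Tnni1 -0.07 to 0.08, Tpm3 -0.60 to 0.14, Csrp3 -0.38 to 0.25, Myoz2 -0.16 to 0.25. F2 against F1: Myh7 -0.06 to 0.06, Tnnt1 -0.05 to 0.01, Mb -0.08 to 0.03. Both generations: Myl2 -0.04 to 0.18, Myl3 0 to 0.13. F1 ancestry: Tnnc1 -0.27 to 0.18, Tpm3 -0.16 to 0.28, Myoz2 -0.28 to 0.49, Mb -0.05 to 0.23. F2 ancestry: Csrp3 -0.01 to 0.16. Difference of both effects: Myh7 -0.13 to 0.18, Tnni1 -0.27 to 0.18, Tpm3 -0.07 to 0.38, Myoz2 -0.26 to 0.51, Mb -0.04 to 0.23.

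Counts over all genes moved too. For F0 against descendants, 279 genes became 38 with array weights, 1231 without F0 EX, 86 without F0 SED, 584 without F1 EX pool 1, 181 and 185 without F2 SED pool 2 and F2 EX pool 2, and 170 without both arrays that stood apart. For F2 against F1, 2 genes passed with a trended robust fit and 1 with array weights. For F1 ancestry, 1046 passed without F1 EX pool 2 and 8 without F1 SED pool 1, and for the difference of both effects 143 and 5.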
